A study of Mus musculus with 16 samples.

Results

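Endothelial cell genes were examined in 16 mouse mammary tumours of the MMTV-Neu model, in which the mouse mammary tumour virus promoter drives the Neu oncogene in mammary epithelium. The genes were a list of 33 known markers of the cells that line blood vessels. A gene entered the analysis when a probe carrying its symbol had a detection p under 0.05 on at least 2 of the 16 arrays, and the probe with the highest mean stood for the gene. This left 24 of the 33 genes, among 9903 genes tested in all. No named probe was found for Cldn5 and Apold1. Probes of Kdr, Flt4, Erg, Clec14a, S1pr1 and Tal1 were detected on 0 arrays and that of Sox17 on 1 array. The outcome for these 9 genes is therefore not given, and a probe that stays at background on an array does not show that the gene was silent.

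Each tumour was measured on 1 Illumina bead array, from total RNA of tumours under 1 cm in diameter from FvB mice, per the labels. There were 5 primary tumours, 2 secondary tumours raised by transplanting lineage-negative cells, called lin- here, and 9 secondary tumours each raised from 1 tumour-initiating cell, called single TIC here. All 3 groups carry the MMTV-Neu label, and no group is free of the transgene. The labels do not give the animals' ages, the genotype of the transplant hosts or whether tumours shared a donor. Host and tumour origin thus cannot be told apart, and the spread behind each p-value is that among these tumours only. Levels are log2 normalized intensity, and a difference of 1 on this scale is a doubling.

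Endothelial cells line blood vessels and hold to each other through junction proteins such as VE-cadherin and PECAM-1. Their growth is driven by vascular endothelial growth factor acting on its receptors, and vessel stability by angiopoietins acting on the receptor Tie2. SOX and ETS family transcription factors switch on many endothelial genes. A solid tumour draws its vessels from the surrounding host tissue, so in RNA from a whole tumour these genes come mainly from cells that are not the cancer cells. In such bulk samples, fewer endothelial cells and less RNA per endothelial cell cannot be told apart.

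ETS factors bind a GGAA core, and promoters of the measured genes were read for such letters because the genes varied together across tumours, as described further on. The promoter table, from RefSeq on build GRCm38.p6, gives 250 bases before and 50 bases after a gene's start and held 10 of the 24 genes: Flt1, Tek, Tie1, Eng, Emcn, Robo4, Egfl7, Cd34, Rasip1 and Cd36. The letters CAGGAAG or their reverse complement CTTCCTG were found in 5 of these 10 promoters, against 13.1% of 27025 promoters in the table and 12.6% of the 8034 that belong to genes tested. They are printed here as the promoters that share this string, with the string in capitals and the rest in lower case, each read along the gene's own strand. Emcn lies at chr3:137340828-137341127 on the plus strand, Robo4 at chr9:37401722-37402021 on the plus strand, and Egfl7 at chr2:26580833-26581132 on the plus strand, the lowest of its 3 starts in the table. Cd34 lies at chr1:194938571-194938870 and Rasip1 at chr7:45627287-45627586, both on the plus strand. Flt1, at chr5:147725962-147726261 on the minus strand, is added as a promoter without the string. Only the full string is marked: the bare core GGAA or its reverse complement TTCC also occurs outside it in each printed promoter, Flt1 included.
Emcn: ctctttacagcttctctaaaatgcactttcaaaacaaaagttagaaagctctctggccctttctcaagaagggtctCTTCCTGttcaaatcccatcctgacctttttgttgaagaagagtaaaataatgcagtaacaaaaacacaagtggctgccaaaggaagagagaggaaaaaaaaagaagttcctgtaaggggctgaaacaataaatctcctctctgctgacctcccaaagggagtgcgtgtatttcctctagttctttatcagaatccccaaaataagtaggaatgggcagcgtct
Robo4: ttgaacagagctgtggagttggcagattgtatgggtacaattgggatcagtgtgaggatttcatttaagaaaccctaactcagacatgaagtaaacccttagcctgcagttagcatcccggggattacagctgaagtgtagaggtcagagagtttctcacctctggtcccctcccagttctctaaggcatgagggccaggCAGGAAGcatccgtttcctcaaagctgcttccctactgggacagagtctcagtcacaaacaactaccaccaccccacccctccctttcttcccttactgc
Egfl7: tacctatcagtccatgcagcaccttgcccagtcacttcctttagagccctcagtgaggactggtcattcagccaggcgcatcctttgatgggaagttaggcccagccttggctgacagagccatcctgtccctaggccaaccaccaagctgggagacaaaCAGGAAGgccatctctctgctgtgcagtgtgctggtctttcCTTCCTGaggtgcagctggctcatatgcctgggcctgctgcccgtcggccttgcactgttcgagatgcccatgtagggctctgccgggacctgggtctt
Cd34: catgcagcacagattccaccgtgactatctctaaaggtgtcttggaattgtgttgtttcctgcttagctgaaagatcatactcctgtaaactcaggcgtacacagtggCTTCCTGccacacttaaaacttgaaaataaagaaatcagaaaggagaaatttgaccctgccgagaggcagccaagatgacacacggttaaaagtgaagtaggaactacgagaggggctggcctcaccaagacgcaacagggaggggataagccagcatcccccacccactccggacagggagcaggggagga
Rasip1: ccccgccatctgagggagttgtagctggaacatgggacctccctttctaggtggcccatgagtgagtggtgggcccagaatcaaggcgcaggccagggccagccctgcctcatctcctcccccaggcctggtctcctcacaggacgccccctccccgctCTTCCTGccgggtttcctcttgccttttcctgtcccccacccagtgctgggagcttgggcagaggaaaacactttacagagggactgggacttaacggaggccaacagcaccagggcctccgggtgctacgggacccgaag
Flt1: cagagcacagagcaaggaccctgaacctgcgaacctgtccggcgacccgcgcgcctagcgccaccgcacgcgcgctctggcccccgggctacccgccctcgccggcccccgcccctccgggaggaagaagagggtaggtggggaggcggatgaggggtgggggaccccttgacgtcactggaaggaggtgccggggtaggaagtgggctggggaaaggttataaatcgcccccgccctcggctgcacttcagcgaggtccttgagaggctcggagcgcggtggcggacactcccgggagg
The string begins 174 bases before the start in Emcn, 50 before it in Robo4, 142 before it in Cd34 and 91 before it in Rasip1. Egfl7 holds it at 90 and 49 bases before the start, once on each strand. The same window was read for 5 other strings on both strands, none of which overlaps a printed match. The related ETS-like string CCGGAAG was in 0 of the 10 promoters, against 9.08% of all promoters and 17.4% of those of genes tested. The SOX-like string ACAAAG was in 3 of them, against 18.9% and 14.4%, and ACAATG in 1, against 12.8% and 7.24%. The GATA-like string AGATAA was in 1 of 10, against 11.3% and 6.31%, and the TATA-like string TATAAA in 1, against 14.1% and 8.0%. A match describes the letters in this window and no binding was measured.

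In primary 2 and primary 5 the endothelial genes were low, which bears on every comparison with primary tumours. The level of the 24 genes together was summarised by taking each gene's log2 intensity less its average in the 16 tumours and averaging over genes. It was 0.32, -1.94, 0.01, 0.13 and -0.93 in primary tumours 1 to 5, and 0.28 and 0.11 in the lin- tumours. In the 9 single TIC tumours it lay between -0.17 and 0.50 with a median of 0.29. Primary 1, 3 and 4 thus lay inside the range of the single TIC tumours, while primary 2 and primary 5 lay below every other tumour. Gene by gene, primary 2 was below the range of the 9 single TIC tumours for 20 of 24 genes and primary 5 for 19. The corresponding counts were 1, 3 and 0 in primary 1, 3 and 4, and 0 and 2 in the lin- tumours.

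**Figure D1:**
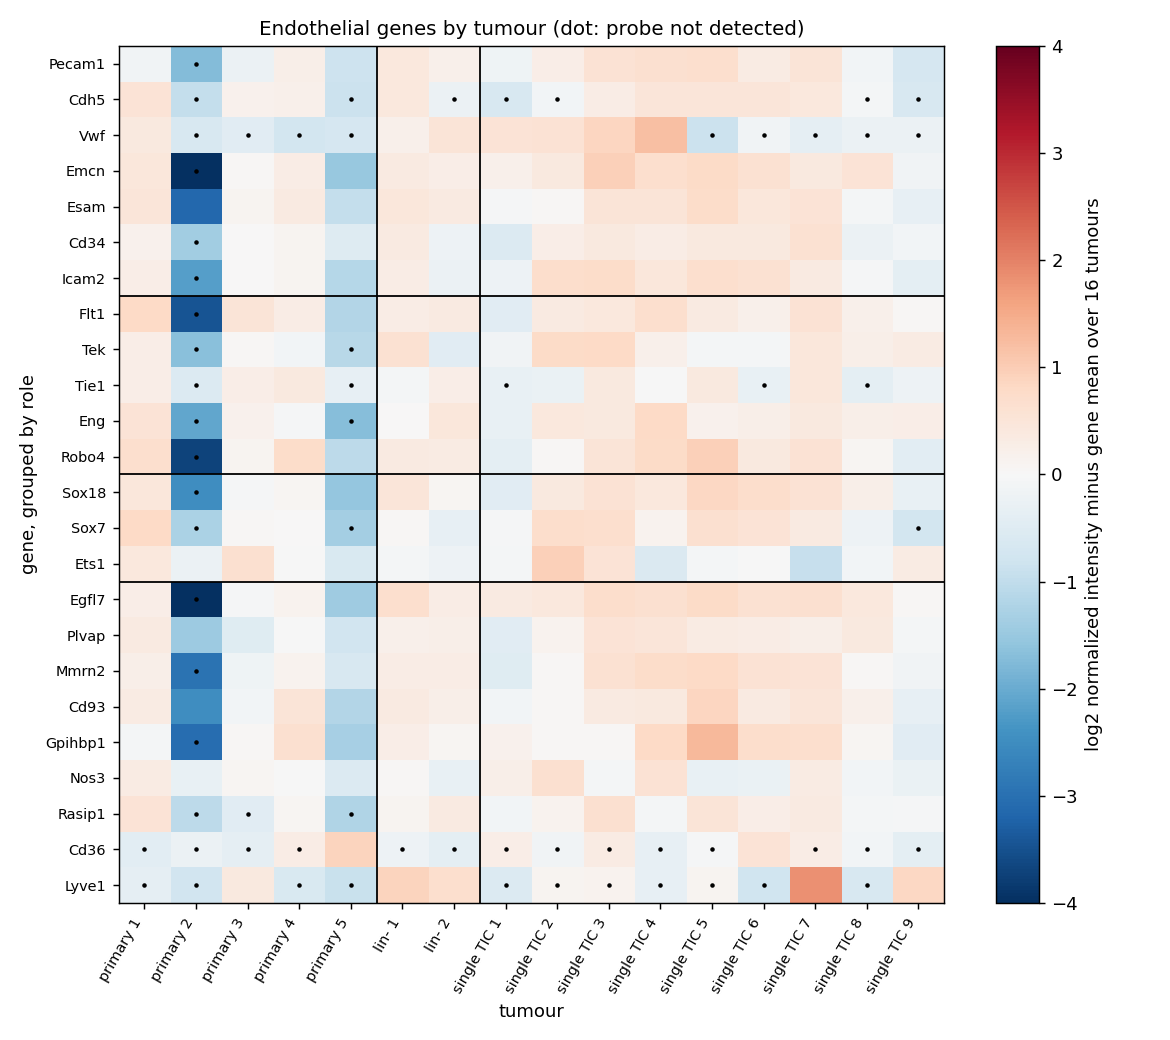
Level of the 24 measured endothelial genes (one per line, grouped by role) in each of the 16 tumours (columns), as log2 normalized intensity less the gene's average in these tumours, with a dot where the probe was not detected. The column of primary 2 is low with 19 of 24 probes undetected, primary 5 is low to a lesser degree, and primary 1, 3 and 4 look like the secondary tumours.

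Most endothelial genes were near background in primary 2. Only Esam, Plvap, Ets1, Cd93 and Nos3 were detected there, 5 of 24, against 16 in primary 5 and 19 to 23 in the other tumours. For 10 genes primary 2 was the only tumour without detection. Primary 2 held the lowest value of all tumours for 17 of the 24 genes, which is 70.8%, against 10.6% of all genes tested. The gap was wide: the mean of the other 4 primary tumours was at least 11-fold above primary 2 for Egfl7, at least 9.91-fold for Emcn, at least 8.75-fold for Robo4 and at least 7.05-fold for Flt1, which primary 2 did not detect. These bounds set the undetected value at the lowest signal of a detected probe on that array. They hold for this background correction and for the probes used. Without background correction the mean level of primary 2 minus the median tumour went from -2.15 to -1.18. A dimmer Egfl7 probe read 5.93 in primary 2, against a primary mean of 5.63. Esam, which was detected, was 8.84-fold lower in primary 2 and Cd93 5.18-fold. Ets1 and Nos3, with folds of 1.26 and 1.20, differed little between primary 2 and the mean of the other primary tumours on the probes used. The other kept Nos3 probes read 5.61 and 4.84 in primary 2, against means over all primary tumours of 5.99 and 5.49.

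In the technical measures given here, the array of primary 2 lay within the range of the other arrays. It detected 12899 probes, within the 12513 to 13163 of the other arrays. Its mean correlation with the other arrays was 0.960, near the low end of the 0.958 to 0.977 elsewhere. Whether sample quality or tissue content played a part was not tested. Markers of some other cell types moved with the endothelial genes in that tumour, and their part in the result was not tested. Of 11 measured markers of mural cells, the pericytes and smooth muscle cells that wrap vessels, 3 were detected in primary 2 and 9 to 11 in every other tumour, with Rgs5 and Acta2 undetected. Of 12 fibroblast markers 3 were detected, against 3 to 12 elsewhere, and Dcn was undetected. The mean of the mural list was -1.89 in primary 2 and -0.59 in primary 5, and that of the fibroblast list -1.98 and -1.24. The fibroblast list was lower than in primary 5 in tumours with endothelial levels inside the range of the others: its mean was -1.43 in primary 4, with 3 of 12 detected, and -1.28 in single TIC 6, with 5 of 12 detected, where the endothelial means were 0.13 and 0.28. The 9 macrophage markers were detected in both low tumours, with a mean of 0.42 in primary 2 and of -1.10 in primary 5, the lowest of all tumours. T and NK cell markers went the other way in primary 2, with all 6 detected and a mean of 2.30, while in primary 5 0 of 6 were detected and the mean was -1.27. The 9 epithelial markers were detected in both, with means of -0.13 and 0.05.

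**Figure D2:**
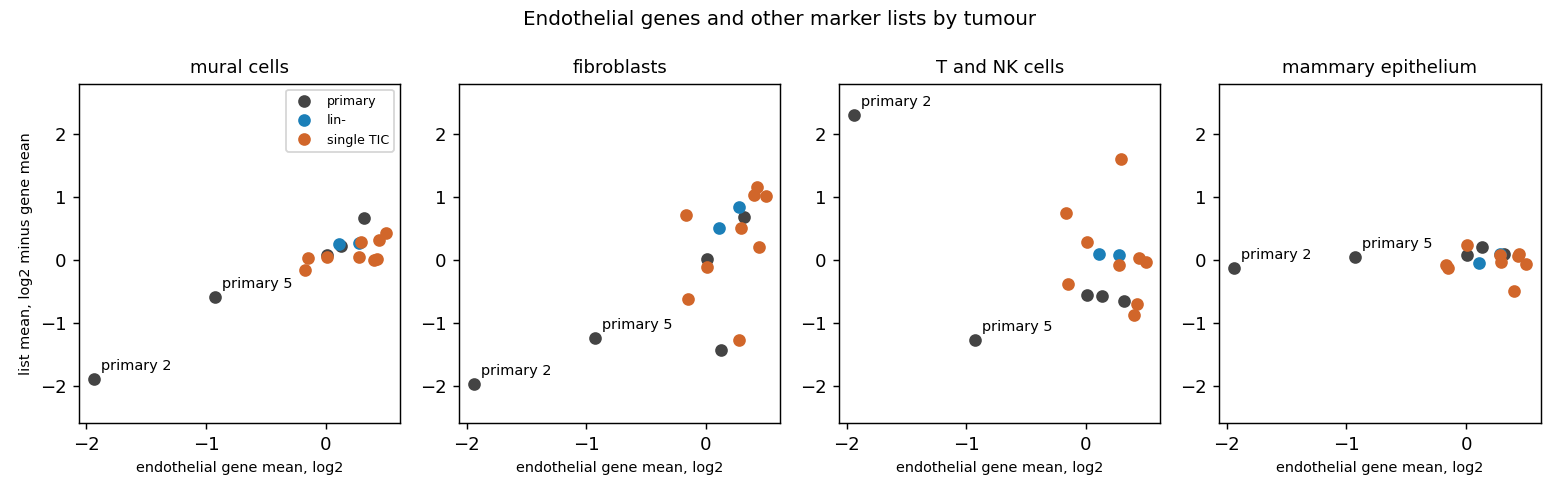
Mean of the 24 endothelial genes (x axis) against the mean of 4 other marker lists (y axes) in each tumour, both as log2 intensity less the gene's average in 16 tumours, coloured by group. Primary 2 and primary 5 are low for endothelial and mural markers and, with primary 4 and single TIC 6, for fibroblast markers, differ from each other in T and NK cell markers, and sit with the other tumours for mammary epithelium.

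The first comparison asks which endothelial genes differ between tumours grown from a single TIC and primary tumours. Of the 24 genes 22 were higher in the single TIC tumours, 91.7% against 46.5% of all genes, with a median difference of 0.78 on the log2 scale against -0.02 over all genes. None passed the test: 0 of 24 had an adjusted p under 0.05 in limma, against 6.26% of all genes (2.13% called higher), and the adjusted p of the 24 ran from 0.0962 to 0.980. At an unadjusted p under 0.05 there were 12 of 24, against 25.3% of all genes. No gene had groups that did not overlap, against 2.48% of all genes. A log2 difference of at least 1 was seen for 4 genes, Egfl7, Emcn, Gpihbp1 and Sox18, against 2.19% of all genes. Without primary 2 it was seen for 0 of 24: the differences were then 0.78 for Egfl7, 0.68 for Emcn, 0.55 for Gpihbp1 and 0.59 for Sox18, and the lowest was -0.17, for Tie1. Leaving out primary 2 lowered the median difference to 0.42, with 21 of 24 higher, against 45.3% of all genes, and 0 called, against 7.92%. Without both low tumours, an alternative chosen after seeing the data, 16 of 24 were higher, against 44.7% of all genes, with a median of 0.14 and 0 called, against 4.47%.

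Junction and adhesion genes were measured for 7 of 8 listed, and all 7 had a higher mean in the single TIC group than in the primary group without passing. Pecam1, a junction protein and the standard marker of endothelium, stood at 6.89, 5.31, 6.81, 7.28 and 6.20 in primary tumours 1 to 5 and at 7.45 and 7.25 in the lin- tumours. In the 9 single TIC tumours it ran from 6.36 to 7.72 with a median of 7.35. Primary 2 was the lowest tumour and primary 5 the next, while the other primary tumours overlapped the secondary ones. The difference of single TIC from primary tumours was 0.77 (SE 0.29, adjusted p = 0.113), and 8 of 9 single TIC tumours exceeded the primary mean. A second Pecam1 probe differed by 0.67.

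Cdh5, which encodes VE-cadherin, stood at 6.13, 4.63, 5.75, 5.78 and 4.70 in the primary tumours and at 5.98 and 5.35 in the lin- tumours. Single TIC tumours ran from 4.93 to 6.05 with a median of 5.87. Its probe was detected on 9 of 16 arrays, so much of its range lies near background, and the groups overlapped. The single TIC mean was higher by 0.25 (SE 0.28, adjusted p = 0.613).

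Emcn, which encodes the sialoglycoprotein endomucin of capillaries and veins, stood at 9.56, 4.82, 9.14, 9.39 and 7.58 in the primary tumours. It was 9.47 and 9.38 in the lin- tumours and 8.96 to 10.07, with a median of 9.65, in the single TIC tumours. Only primary 2 and primary 5 were below the secondary tumours. All 9 single TIC tumours exceeded the primary mean, and the difference of 1.50 (SE 0.58, 2.82-fold) had an adjusted p of 0.120.

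Esam and Icam2, adhesion molecules of endothelium, and Cd34, a sialomucin of capillaries and progenitor cells, were higher by 0.90, 0.91 and 0.49. Esam averaged 8.86 ± 1.52 (SD, n = 5) in primary, 9.91 ± 0.08 (n = 2) in lin- and 9.77 ± 0.37 (n = 9) in single TIC tumours. Icam2 averaged 6.62 ± 1.05, 7.24 ± 0.39 and 7.53 ± 0.42 in the same order, and Cd34 6.59 ± 0.66 in primary and 7.08 ± 0.38 in single TIC tumours, with 7.27 and 6.72 in the lin- tumours. For each of the 3 genes the SD was largest in primary tumours. Vwf, the clotting factor stored by endothelial cells and platelets, followed another pattern. It was detected on 7 arrays, only primary 1 among the primary tumours (6.03, against 4.91 to 5.20 in the other 4), both lin- tumours (5.85 and 6.15) and 4 of 9 single TIC tumours, which ran from 4.80 to 6.86.

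Receptors were measured for 5 of 8 listed, and 4 of the 5 were higher in single TIC tumours. Tek encodes Tie2, the angiopoietin receptor, and Tie1 its co-receptor. Tek stood at 6.84, 4.90, 6.62, 6.48 and 5.47 in the primary tumours and at 7.18 and 6.11 in the lin- tumours. Single TIC tumours ran from 6.43 to 7.37 with a median of 6.81, so that all 9 exceeded the primary mean while overlapping primary 1, 3 and 4. The difference was 0.79 (SE 0.30, adjusted p = 0.114). Tie1 stood at 6.08, 5.28, 6.08, 6.22 and 5.48 in the primary tumours, at 5.74 and 6.09 in the lin- tumours, and between 5.43 and 6.28 with a median of 5.63 in the single TIC tumours. Its groups overlapped throughout, and the difference of single TIC from primary was -0.03 (95% interval -0.43 to 0.38), with detection on 11 of 16 arrays.

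Eng encodes endoglin, a co-receptor for transforming growth factor beta family ligands on endothelium. It stood at 7.58, 4.93, 7.18, 6.99 and 5.32 in the primary tumours and at 7.04 and 7.46 in the lin- tumours, and ran from 6.74 to 7.81 with a median of 7.30 in the single TIC tumours. Primary 2 and primary 5 were both undetected for Eng, and primary 1, 3 and 4 fell within the single TIC range. The difference was 0.92 (SE 0.36, adjusted p = 0.124). Flt1, the decoy-like receptor 1 for vascular endothelial growth factor, averaged 7.71 ± 1.76 (SD, n = 5), 8.65 ± 0.06 (n = 2) and 8.58 ± 0.34 (n = 9) in primary, lin- and single TIC tumours. Robo4, an endothelial roundabout receptor that stabilises vessels, averaged 7.97 ± 1.86, 8.98 ± 0.02 and 8.90 ± 0.48. Neither passed for single TIC against primary tumours, at 0.86 (adjusted p = 0.307) and 0.93 (adjusted p = 0.312). Without primary 2 these differences were 0.15 for Flt1 and 0.16 for Robo4. A second, dimmer Robo4 probe, detected on 6 arrays, differed by -0.04.

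Transcription factors were measured for 3 of 6 listed. Sox18, a SOX factor of developing blood and lymph vessels, stood at 7.81, 4.85, 7.31, 7.43 and 5.78 in the primary tumours. It was 7.83 and 7.42 in the lin- tumours and 6.88 to 8.17, with a median of 7.76, in the single TIC tumours. Primary 2 and primary 5 were again the tumours below all others, and the difference of 1.03 (SE 0.40, 2.05-fold) had an adjusted p of 0.122.

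Sox7, a close relative of Sox18, stood at 6.95, 4.89, 6.18, 6.17 and 4.78 in the primary tumours, at 6.18 and 5.81 in the lin- tumours, and between 5.41 and 6.86 with a median of 6.51 in the single TIC tumours. Primary 1 held the highest value of all tumours, and the difference of single TIC from primary was 0.58 (SE 0.33, adjusted p = 0.284). Ets1, an ETS factor that lymphocytes express too, behaved differently. It averaged 9.85 ± 0.50 (SD, n = 5), 9.66 ± 0.08 (n = 2) and 9.81 ± 0.56 (n = 9), with a value of 9.58 in primary 2. That tumour had the highest T and NK cell markers, and a link between them and Ets1 was not tested. The Ets1 difference of single TIC from primary was -0.04 (95% interval -0.61 to 0.53).

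**Figure D3:**
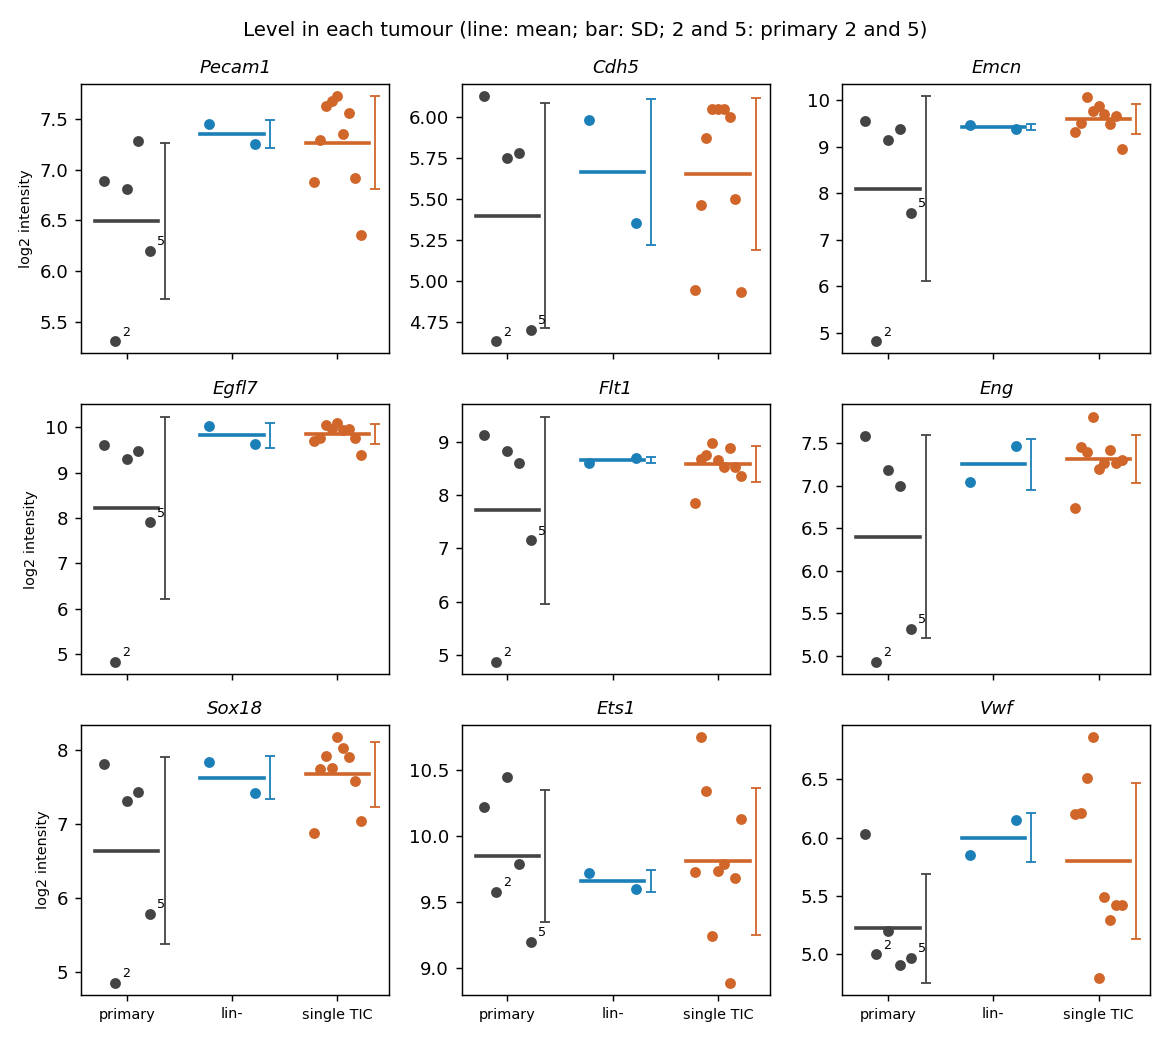
Log2 normalized intensity of 9 endothelial genes in each tumour (points), with the group mean (line) and SD (bar), for 5 primary, 2 lin- and 9 single TIC tumours; the vertical axes differ between panels and do not start at 0. For Pecam1, Cdh5, Emcn, Egfl7, Flt1, Eng and Sox18 the points of primary 2 and primary 5 lie below the other primary tumours, while for Ets1 both lie within the single TIC range and for Vwf both lie beside primary 3 and primary 4.

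Genes of the vessel surface, lumen and matrix were measured for 9 of 11 listed, and all 9 were higher in single TIC tumours. Egfl7, a matrix protein secreted by endothelium, stood at 9.60, 4.83, 9.29, 9.47 and 7.90 in the primary tumours and at 10.02 and 9.63 in the lin- tumours. Single TIC tumours ran from 9.38 to 10.10 with a median of 9.93. All secondary tumours exceeded primary 2, 3 and 5, and the spread among single TIC tumours (SD 0.22) was small beside that among primary tumours (SD 2.01). The difference of 1.62 (SE 0.57, 3.08-fold, adjusted p = 0.0972) was the largest among the 24 genes. It depends on the probe: the other kept Egfl7 probes differed by 0.87 and 0.10, and the last of them read 5.93 in primary 2.

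Gpihbp1, which holds lipoprotein lipase on capillary walls, stood at 7.98, 5.03, 8.11, 8.71 and 6.75 in the primary tumours and at 8.34 and 8.15 in the lin- tumours. Single TIC tumours ran from 7.62 to 9.36 with a median of 8.25, and the difference was 1.12 (SE 0.46, 2.18-fold, adjusted p = 0.144). Primary 2 and primary 5 were the only tumours below the single TIC range. Plvap, which forms the diaphragms of fenestrated capillaries, stood at 9.75, 7.94, 8.89, 9.38 and 8.63 in the primary tumours, at 9.57 and 9.62 in the lin- tumours, and between 8.92 and 9.93 with a median of 9.68 in the single TIC tumours. Its difference of 0.67 (SE 0.24) had the lowest adjusted p of the 24 genes, 0.0962. Without primary 1, the primary tumour with the highest Plvap, Plvap was higher by 0.88 (adjusted p = 0.0461) and Rasip1 by 0.84 (adjusted p = 0.0480), the only calls made by leaving out a tumour. In that fit 2.97% of all genes were called.

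Rasip1, a Ras-interacting protein needed for vessel lumens, averaged 5.48 ± 0.74 (SD, n = 5) in primary, 6.13 ± 0.17 (n = 2) in lin- and 6.08 ± 0.28 (n = 9) in single TIC tumours, a difference of 0.60 for single TIC (adjusted p = 0.140). Mmrn2, a matrix partner of Cd93, averaged 7.14 ± 1.31, 8.10 ± 0.01 and 8.13 ± 0.45, and Cd93 itself, a surface glycoprotein of endothelium that myeloid cells also carry, 8.08 ± 1.25, 8.96 ± 0.09 and 8.91 ± 0.36. Both were higher, by 0.98 (adjusted p = 0.148) and 0.83 (adjusted p = 0.185). All 9 single TIC tumours exceeded the primary mean for each, but so did primary 1, primary 3 and primary 4. Nos3, endothelial nitric oxide synthase, averaged 6.21 ± 0.34, 6.19 ± 0.25 and 6.39 ± 0.38. Its difference of single TIC from primary was 0.18, and 0.24 and 0.51 on its other kept probes.

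Cd36, the fatty acid transporter of capillaries, macrophages and fat cells, was detected on 2 arrays only, primary 5 and single TIC 6, and its group means of 5.16 ± 0.56 (SD, n = 5), 4.83 ± 0.13 (n = 2) and 5.17 ± 0.32 (n = 9) are background readings for the most part. Lyve1, a hyaluronan receptor of lymphatic endothelium and some macrophages, was detected on 5 arrays. It stood at 5.05, 4.65, 5.80, 4.80 and 4.53 in the primary tumours and at 6.29 and 6.10 in the lin- tumours, and ran from 4.62 to 7.25 with a median of 5.51 in the single TIC tumours. Both lin- tumours exceeded every primary tumour, and the high single TIC values belong to single TIC 7 and single TIC 9.

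**Figure D4:**
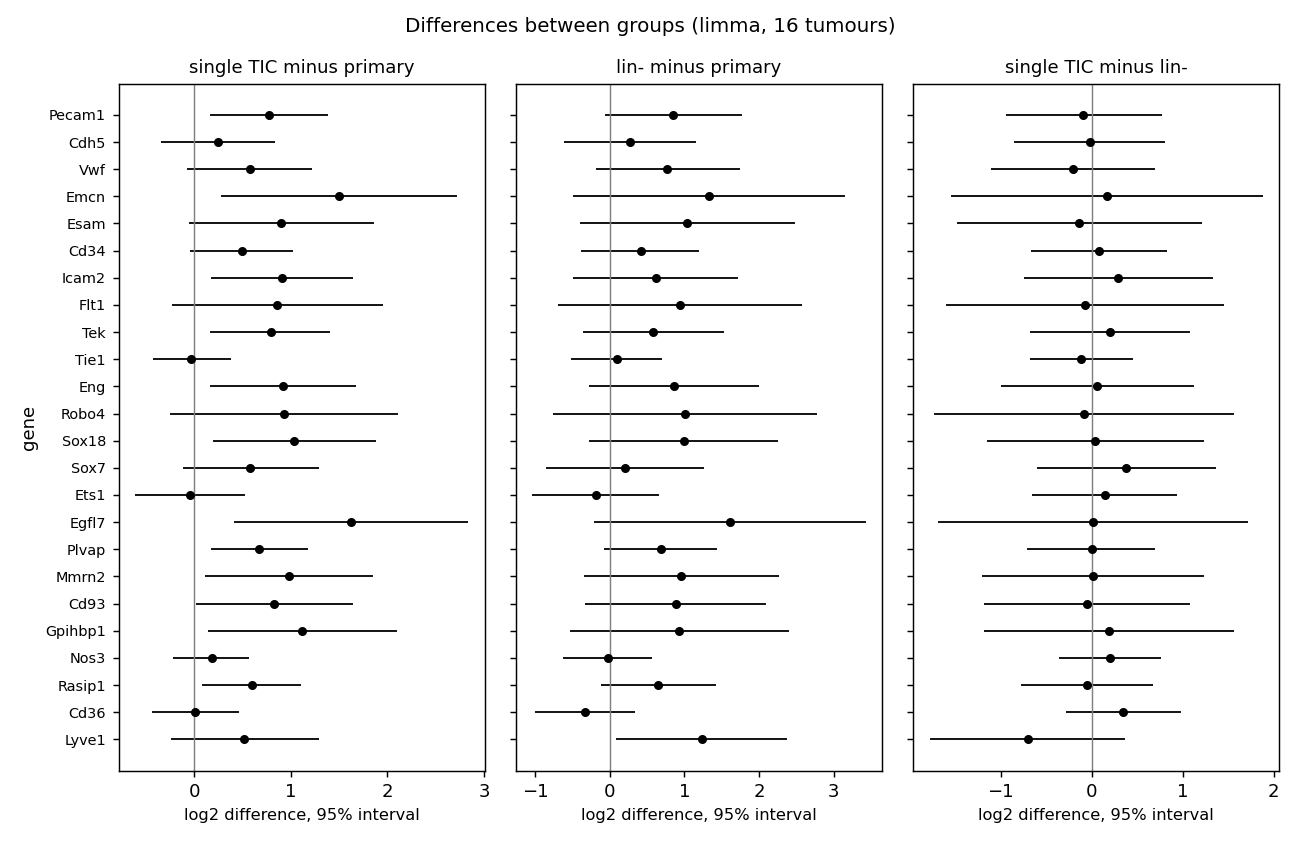
Differences between groups in log2 normalized intensity (points) with 95% intervals from limma (lines) for the 24 endothelial genes, for single TIC minus primary, lin- minus primary and single TIC minus lin-, with horizontal axes that differ between panels. Most points lie above 0 in both comparisons with the shared primary tumours (22 and 21 of 24), and all 24 intervals of single TIC minus lin- include 0.

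The second comparison sets the 2 lin- tumours against the same 5 primary tumours, so its values share those controls with the first. Of the 24 genes 21 were higher, 87.5% against 46.8% of all genes, with a median of 0.81 against -0.02. None was called, as for all genes (0.0%), and the adjusted p ran from 0.477 to 0.985. At an unadjusted p under 0.05 there was 1 gene, Lyve1, against 9.85% of all genes. The groups did not overlap for Egfl7, Mmrn2 and Lyve1, 3 of 24 against 14.9% of all genes. Lyve1 was higher by 1.23 (95% interval 0.08 to 2.38, adjusted p = 0.477), Egfl7 by 1.61 (interval -0.22 to 3.43), Emcn by 1.33 and Esam by 1.04. Lyve1, Egfl7, Emcn, Esam and Robo4 were the 5 genes with a log2 difference of at least 1, against 2.44% of all genes. Without primary 2 the median was 0.38 with 19 of 24 higher, against 45.6% of all genes, and 0 called, against 0.0404%. Without primary 2 and primary 5 it was 0.00 with 12 of 24 higher, against 44.9%, and 0 called, against 0.0505%.

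Between the 2 kinds of secondary tumour no endothelial gene passed the test. Single TIC tumours were higher than lin- tumours for 13 of 24 genes, 54.2% against 48.5% of all genes, with a median of 0.02. None was called, as for all genes (0.0%), and 0 of 24 had an unadjusted p under 0.05, against 1.69% of all genes. The 95% interval included 0 for all 24 genes. The widest differences were those of Lyve1, at -0.70 (interval -1.78 to 0.37), and Sox7, at 0.38 (interval -0.60 to 1.37). With 2 lin- tumours these intervals also reach doublings in either direction for many genes: that of Emcn ran from -1.54 to 1.88.

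The spread of the endothelial genes among primary tumours was taken with and without primary 2 and primary 5. Over all 5 primary tumours their median SD was 0.88 in primary and 0.38 in single TIC tumours, while over all genes it was 0.26 and 0.25. The SD was larger in primary tumours for 20 of 24 genes, 83.3% against 52.4% of all genes. The exceptions were Vwf, Ets1, Nos3 and Lyve1. Without primary 2 the median SD of the members in primary tumours was 0.63, against 0.24 over all genes, and it exceeded that of single TIC tumours for 16 of 24 genes, 66.7% against 45.6%. Among primary 1, 3 and 4 alone the median SD was 0.26, against 0.20 over all genes, and 4 of 24 genes had a larger SD than in single TIC tumours, 16.7% against 37.2%. Primary 2 and primary 5 were left out because these same genes were lowest there. Leaving them out narrows the spread by itself, so no conclusion is drawn from these smaller SDs.

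The genes varied together from tumour to tumour. Over the 16 tumours, after taking out the group means, the median Pearson correlation over the 276 pairs of genes was 0.72, with a range from -0.41 to 0.99, against 0.00 over pairs of all genes. It was 0.43 without primary 2 and primary 5, and 0.48 within the 9 single TIC tumours alone, so part of it rests on the low primary tumours. These are descriptions without a test, and the genes of a tumour share an array. Esam, Icam2, Sox18 and Robo4 each had r = 0.97 with the mean of the other members, and Egfl7 0.95. Within the single TIC tumours Pecam1 had r = 0.94, Icam2 0.91, and Cdh5, Esam, Egfl7, Sox18 and Cd34 each 0.89. Tek fell from 0.80 over 16 tumours to 0.30 within the single TIC tumours and Eng from 0.89 to 0.57.

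A group of 5 genes did not follow the others. Over 16 tumours r with the mean of the other members was 0.19 for Vwf, 0.25 for Ets1, 0.22 for Lyve1, 0.42 for Nos3 and -0.08 for Cd36, and within the single TIC tumours Ets1 had r = -0.23. Vwf, Lyve1 and Cd36 were detected on fewer than 8 arrays, and Ets1 and Nos3 on all 16. Nos3 had 3 kept probes, and its values here are those of the brightest. The other 19 genes, set apart after their values were seen, had a median pairwise r of 0.83 over 16 tumours and 0.70 within the single TIC tumours. In the single TIC tumours the mean of the 24 genes was highest in single TIC 3 at 0.50 and lowest in single TIC 9 at -0.17.

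**Figure D5:**
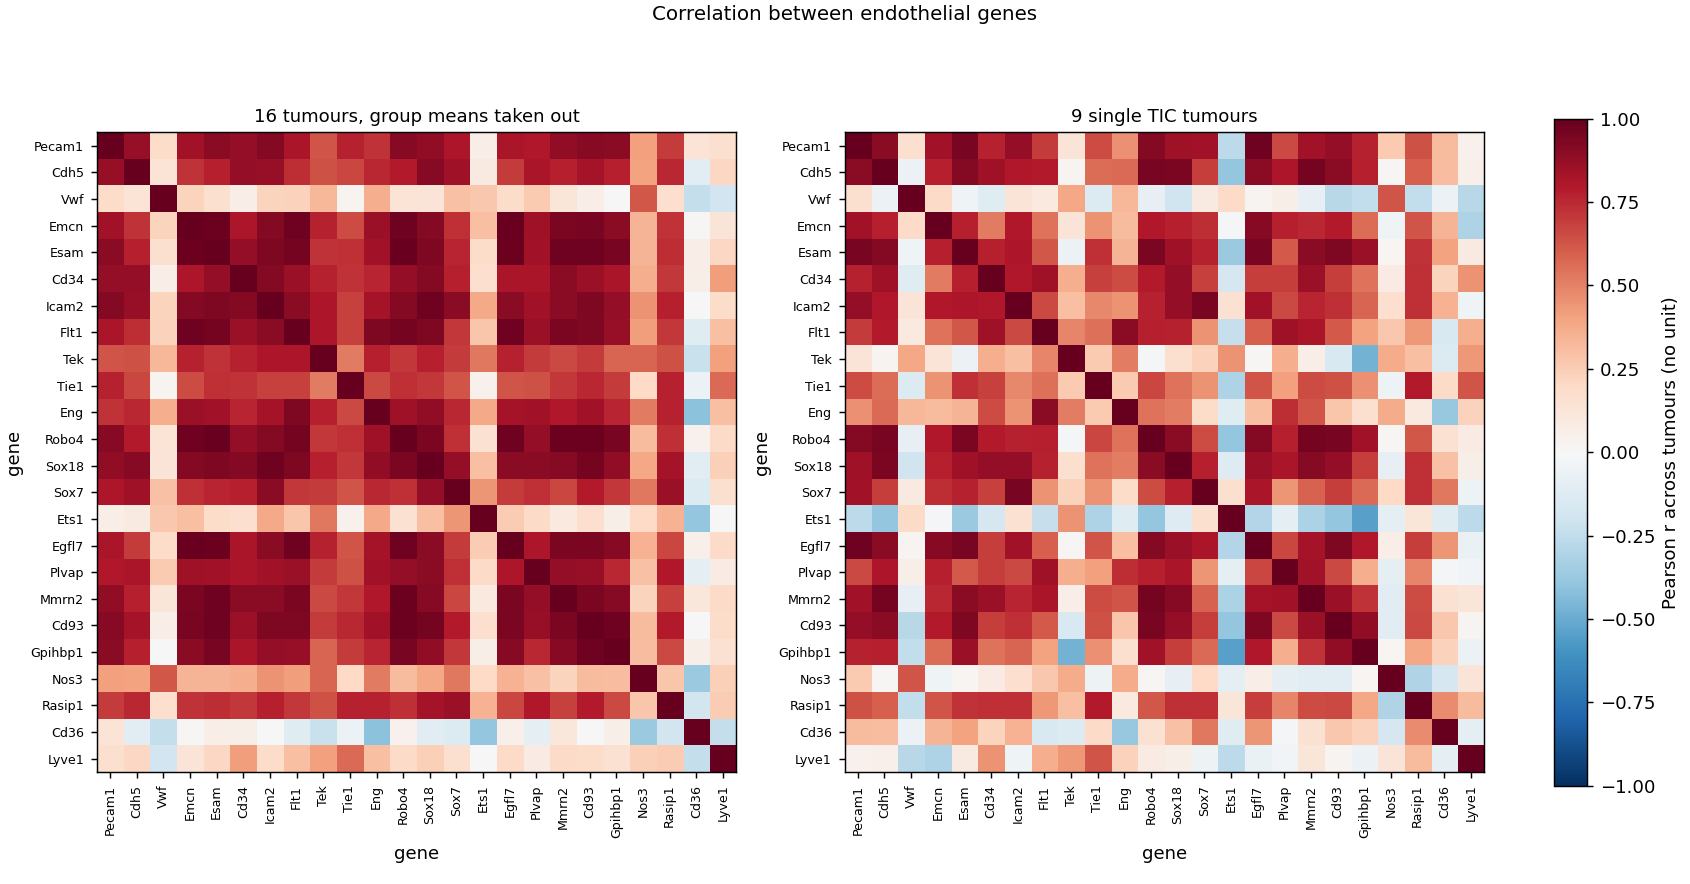
Pearson correlation between each pair of the 24 endothelial genes across 16 tumours with group means taken out (left) and across the 9 single TIC tumours (right). Most genes form a block of positive correlation in both panels, and Vwf, Ets1, Nos3, Cd36 and Lyve1 lie outside it.

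The 12 genes outside the list with the highest r to the mean of the 24 over 16 tumours, group means taken out, were Ramp2 and Sparc (0.98 each), Mcam (0.97), Tmem204, Ptprb, Gja1, Notch4 and Rgs5 (0.96 each), Ednrb and Abcc9 (0.95 each), and Cavin3 and Cav1 (0.94 each). Of these, 4 stand in the list of further endothelial genes (Ramp2, Ptprb, Notch4 and Ednrb), 3 in the mural list (Mcam, Rgs5 and Abcc9), 1 in the fibroblast list (Sparc) and 4 in no list used here. Within the 9 single TIC tumours Ramp2 had r = 0.98, Sparc 0.97 and Ptprb 0.95, while Rgs5, a pericyte gene, had 0.66. The likeness was chosen on these tumours and is a description. As lists, 29 other endothelial genes had a mean that correlated with the members at r = 0.97 over 16 tumours and 0.95 within single TIC tumours. The 11 mural genes gave 0.95 and 0.63, the 12 fibroblast genes 0.58 and 0.40, and the 6 T and NK cell genes -0.60 and -0.26.

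Of 29 further endothelial genes measured of 42 listed, 19 had a higher mean in the single TIC group than in the primary group. That is 65.5%, against 46.5% of all genes, with a median difference of 0.14. Of the 29, 1 rose, Ramp2, while 6.26% of all genes were called (2.13% called higher). At an unadjusted p under 0.05 in limma there were 8 of 29, 27.6% against 25.3% of all genes. Ramp2, the partner protein of the adrenomedullin receptor, stood at 9.01, 6.28, 8.53, 8.51 and 7.67 in the primary tumours, at 9.51 and 9.21 in the lin- tumours, and between 9.01 and 9.55 with a median of 9.38 in the single TIC tumours. Ramp2 rose by 1.33 (SE 0.32, 2.52-fold, adjusted p = 0.0233). Every single TIC tumour lay above the highest primary tumour, although single TIC 9 and primary 1 were equal to the second decimal. Groups did not overlap for 2.48% of all genes. The call was lost without primary 5 (adjusted p = 0.0652) and with each array's mean raw intensity as a covariate (0.113). Aqp1, the water channel of capillary endothelium and red cells, and Ednrb, an endothelin receptor, were higher by 1.76 (adjusted p = 0.0823) and 1.48 (adjusted p = 0.196). Thbd, the thrombin receptor thrombomodulin, was higher by 0.86 (adjusted p = 0.121).

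Of 13 ligands that act on vessels, 8 were higher in single TIC tumours, 61.5% against 46.5% of all genes. Of the 13, 0 rose and 1 fell, while 6.26% of all genes were called (2.13% called higher). Edn1, which encodes the vasoconstrictor endothelin, fell by 0.96 in log2 units (SE 0.26, adjusted p = 0.0427). It stood at 7.70, 8.23, 8.95, 8.65 and 8.63 in the primary tumours, at 7.57 and 7.55 in the lin- tumours, and between 6.58 and 8.24 with a median of 7.52 in the single TIC tumours. The groups overlapped, since 4 single TIC tumours exceeded primary 1. Its adjusted p was above 0.05 under many other settings, among them 0.0519 with median scaling and 0.116 without primary 3. Adm, which encodes adrenomedullin, was higher by 1.03 (adjusted p = 0.152), Angpt2, a Tie2 ligand, by 0.80 (adjusted p = 0.510), and Angptl4 differed by -1.22 (adjusted p = 0.238).

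Markers of other cells in the tumours gave these values for single TIC against primary tumours. Over all genes 46.5% were higher and 6.26% were called, with 2.13% called higher. Of 11 mural genes 8 were higher with a median of 0.28 and 0 were called; Acta2, smooth muscle actin, was higher by 1.96 (adjusted p = 0.126) and Rgs5 by 1.07 (adjusted p = 0.289). Of 12 fibroblast genes 10 were higher with a median of 1.30 and 0 were called. Of 9 macrophage genes 8 were higher with a median of 0.53, and 0 were called. At an unadjusted p under 0.05 in limma there were 7 fibroblast genes (58.3%), 3 macrophage genes (33.3%) and 2 mural genes (18.2%), against 25.3% of all genes. In the lists that follow there were 1 adipocyte, 2 lymphatic, 1 platelet and 1 epithelial gene, and 0 erythroid or T and NK cell genes. All 4 adipocyte genes were higher with a median of 1.14 and 0 were called, while all 4 erythroid genes were higher with a median of 0.44 and 0 were called. Of 6 T and NK cell genes 5 were higher with a median of 0.29 and 0 were called. Of 5 lymphatic genes, Lyve1 among them, 3 were higher and 0 were called, with Pdpn, podoplanin, higher by 1.71 (adjusted p = 0.143) and Prox1, the lymphatic master regulator, at -0.51 (adjusted p = 0.100). Of 2 platelet genes 1 rose, Pf4, which macrophages also express, by 1.49 (SE 0.33, adjusted p = 0.0187). The other, Itga2b, went the opposite way, at -0.48 (adjusted p = 0.285). Of 9 epithelial genes 1 rose, Cldn7, by 0.54 (SE 0.12, adjusted p = 0.0179), and the list's median was -0.13.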

How the data were processed

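Linear, non-normalized intensity values of 25697 probes were deposited for every tumour, per the file headers. Each value comes with a deposited p-value of detection. The authors' processed table, also intensity, looks quantile-normalized from its values and served as an alternative. BeadStudio is named in the submitters' processing notes, without a version or its steps. Of the probes 23978 have 1 gene symbol in the array annotation and 1719 have none.

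Background was corrected with limma 3.58.1 in R 4.3.3 (nec from detection p-values, offset 16), followed by quantile normalization and log2. The offset understates changes of dim genes. Probes with a detection p under 0.05 on at least 2 arrays were kept (14520). A fit with 3 group means over all 16 tumours (lmFit, eBayes) gave two-sided p-values, adjusted by Benjamini-Hochberg over 9903 genes, and an adjusted p under 0.05 was called. Replicates were numbered in accession order. Precision is limited by the number of arrays. The fit was also run on simulated data, with genes independent of each other and the same SD in every group. That run thus does not speak to the members' shared variation and unequal spread. Slide and scan batches are not given in the labels.

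The members and gene lists were chosen with earlier results of these data known. Every measured member is named. Values of each primary and lin- tumour are given for 8 measured standard markers. They are also given for the 4 members with the largest difference of single TIC from primary and the 2 with the largest from lin-. For these genes the single TIC tumours are given by range and median. Outside the list, called endothelial genes, up to 4 genes per marker list with the largest difference and the 12 genes most correlated with the members may be named. Values of other members or tumours were singled out after they were seen.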

Additional observations from a re-analysis of the deposited data

Results flagged for a closer look

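Among 50 sets of values (24 members and the genes' mean, each in the 5 primary and in the 9 single TIC tumours), 2 held a tumour far from the rest by Dixon's ratio of gap to range, and chance alone marks about 1 in 20. Vwf in primary 1 stood at 6.03, above the other 4 primary tumours. Mmrn2 in primary 2 stood at 4.88, below the other 4 and undetected.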

How the results depend on the processing

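No paired analysis was possible because replicate numbers were given in accession order and the labels pair no tumours. The alternatives were no background correction, an offset of 50, the authors' processed table, median scaling, 2 other detection filters, the mean of the kept probes, array weights, mean raw intensity as a covariate, only the groups compared, and each tumour left out. For single TIC against primary, 0 members were called under each of them except for 0 to 2 over the fits that left out a tumour, with 2 without primary 1. The share of all genes called was 0.182% with the covariate, 3.51% to 6.99% with the other settings and 2.65% to 7.92% with a tumour left out. The number of members higher ran from 21 to 23 among the 24 and their median from 0.41 to 0.93. With a lin- tumour left out, the lone lin- tumour is assumed to vary like the other groups. Without primary 2 and primary 5, chosen after seeing the data, the lin- values were 12 members higher and a median of 0.00. The level of primary 2 minus the median tumour was -2.15, and -1.18 with no background correction or with the authors' table, and primary 2 and primary 5 stayed the lowest tumours in all 7 settings. Signs near 0 turned for single TIC against primary: Cd36 to -0.01 with an offset of 50 and with median scaling, and Ets1 to 0.03 with the covariate. Over tumours left out, Cd36 ran from -0.10 to 0.23, Ets1 from -0.20 to 0.11 and Tie1 from -0.17 to 0.07. Without primary 2 and primary 5 the differences became -0.24 for Cdh5, -0.27 for Flt1 and -0.04 for Esam. They became -0.23 for Robo4, -0.06 for Sox7 and -0.04 for Nos3. In lin- tumours 12 of 24 members were higher in that fit, against 21 with all primary tumours. Robo4, at -0.15, is an example of the lin- signs that turned. The cause was not tested. Probes near background limit Cd36, Lyve1, Vwf and Cdh5.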
